A study of Mus musculus with 12 samples.

Results

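Motile cilia are the beating, hair-like projections that the ependymal cells lining the brain ventricles carry in tufts. The genes for their moving parts were followed here in the hypothalamus of mouse pups that had undergone modified maternal separation (MMS) and of control pups. The members were 26 genes given by name together with the Dnah, Dnaic, Rsph, Tekt and Cfap families taken by symbol. Of 43280 gene rows, 73 matched and 71 had at least 10 counts over all libraries. The 2 that did not were Dnah17, with 0 counts, and Dnah2os, with 9. Of the 71, 49 had enough counts to be tested, among 13104 genes tested in all.

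The tissue came from 12 male C57/Bl6 pups at postnatal day 6, 6 Control and 6 MMS, and each pup gave 1 library of 3' mRNA sequencing. Pups of the MMS group were kept apart from the dam for a short session on each of several days, warm and repeatedly turned onto the back, and the hypothalamus was dissected straight after the last session. Litters were divided between the groups, but the sources do not say which litter each sequenced pup came from, so the tests treat pups as independent. The block of tissue was cut by surface landmarks and includes the wall of the third ventricle, whose ependyma is a thin layer of it.

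Each motile cilium has a ring of microtubule doublets around a central pair. Outer and inner dynein arms on the doublets slide them past each other, nexin links and radial spokes turn the sliding into bending, and the central apparatus sets its rhythm. Tektins and other inner microtubule proteins stiffen the doublets. The whole set is switched on in multiciliated cells by Foxj1, a forkhead transcription factor, together with RFX factors such as Rfx2 and Rfx3, which bind X-box sequences near the starts of ciliary genes.

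The X-box is shown first, because it is the sequence that RFX factors bind. RefSeq windows of 300 bases, 250 before to 50 after each transcript start in GRCm38.p6, were matched for 59 of the 71 members. The letters GTTGCC, the core that RFX factors recognise, were found on either strand in 27 of the 59 (45.8%), against 14.1% of 27025 genes. A fuller X-box, GTNNCC followed after 3 bases by GNAAC, was found on either strand in 10 of the 59, against 2.49% of genes. It can contain the core. An X-box with a spacer of another length was not counted. TGTTTAC, a forkhead site, was found in 4 of the 59 (6.78%), against 4.05% of genes. A match is a description of the letters and does not show that a factor is bound. The 4 windows below belong to members described further on, written from 5′ to 3′ along the gene's own strand, with matches to GTTGCC or the X-box in capitals. They lie at chr8:116504765-116505064 (Dynlrb2, plus strand), chr9:44240427-44240726 (Ccdc153, plus strand), chr2:21205316-21205615 (Enkur, minus strand) and chr8:110266727-110267026 (Hydin, plus strand).
Dynlrb2: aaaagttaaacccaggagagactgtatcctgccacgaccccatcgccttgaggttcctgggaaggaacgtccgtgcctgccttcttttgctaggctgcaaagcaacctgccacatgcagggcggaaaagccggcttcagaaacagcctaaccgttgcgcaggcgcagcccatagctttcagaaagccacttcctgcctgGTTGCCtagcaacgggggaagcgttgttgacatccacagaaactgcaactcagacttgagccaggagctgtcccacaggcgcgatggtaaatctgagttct
Ccdc153: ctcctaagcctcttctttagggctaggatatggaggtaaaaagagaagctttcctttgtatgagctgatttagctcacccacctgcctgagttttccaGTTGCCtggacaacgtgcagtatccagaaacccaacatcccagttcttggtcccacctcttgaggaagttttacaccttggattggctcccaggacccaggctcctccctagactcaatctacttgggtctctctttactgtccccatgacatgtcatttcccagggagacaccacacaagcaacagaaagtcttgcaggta
Enkur: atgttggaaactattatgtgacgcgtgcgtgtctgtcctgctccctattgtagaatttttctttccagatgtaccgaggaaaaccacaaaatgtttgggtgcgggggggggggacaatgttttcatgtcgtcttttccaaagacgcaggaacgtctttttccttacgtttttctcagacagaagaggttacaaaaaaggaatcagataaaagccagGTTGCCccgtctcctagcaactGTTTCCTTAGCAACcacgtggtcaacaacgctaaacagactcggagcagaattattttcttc
Hydin: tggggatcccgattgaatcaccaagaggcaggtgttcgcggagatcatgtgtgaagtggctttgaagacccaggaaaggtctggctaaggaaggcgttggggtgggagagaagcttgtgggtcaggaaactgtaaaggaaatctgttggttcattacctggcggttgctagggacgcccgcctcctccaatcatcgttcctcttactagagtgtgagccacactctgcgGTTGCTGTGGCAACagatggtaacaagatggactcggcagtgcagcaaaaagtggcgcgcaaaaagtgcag
In Dynlrb2 the core begins 51 bases before the annotated start, and in Ccdc153 it begins 152 bases before it. Enkur has both, the core beginning 34 bases before the start and the X-box 12 bases before it. In Hydin the printed X-box begins 21 bases before the start. It fits the pattern when read on the other strand, and so does the core inside it. The windows of Tmem212 and Wdr63 hold none of the 3 motifs.

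Library totals ran from 3218777 to 6560620 counts, so that 1 count was worth 0.154 to 0.322 CPM, the unit used for levels here, in which counts are scaled to a common library size with edgeR's TMM factors. Because reads come from the 3' end of the transcript, a level does not grow with gene length. The members together held between 0.0630% and 0.110% of the counts of a library. On the first principal component of all genes, MMS 2 and MMS 4 lay far from the remaining libraries (57.8 and 46.3 against -14.4 to -3.04). With 83 motile cilium genes left out they lay at 55.5 and 46.0. The main results below are therefore given with and without MMS 2 and MMS 4. Of all genes tested, 15.1% had their 2 lowest values in exactly these libraries.

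With all 12 libraries, the members leaned lower in MMS, but no single member passed the test over all genes. In edgeR, 0 of the 49 members passed an FDR of 0.05 (0% of all genes did, 0 of 13104), and no member had an adjusted p below 0.392. An unadjusted p under 0.05 was reached by 7 members (9.08% of all genes). All 7 were lower in MMS (14.3% of members, where 4.4% of all genes were), and 0 were higher (4.68% of all genes were). The 7 were Rsph4a, Enkur, Wdr63, Hydin, Dnah1, Meig1 and Dnah9. The log2 fold change, MMS relative to control, was below 0 for 38 members (77.6%, against 49.9% of all genes). It was at or below -0.5 for 17 (34.7%, against 3.56%) and at or above 0.5 for 1, Cfap61 (2.52% of all genes were). The members' median was -0.25, and that of all genes was 0.0009. Of the 49, 13 reached the level of the count filter in all 6 controls but not in all MMS libraries. The controls alone could carry a member through the filter, and the share of all genes with this was not computed. Members share cells and cannot be counted as replicates of each other, so these figures describe the list. In a piece of whole tissue, fewer ciliated cells and less ciliary mRNA per cell cannot be told apart.

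**Figure D1:**
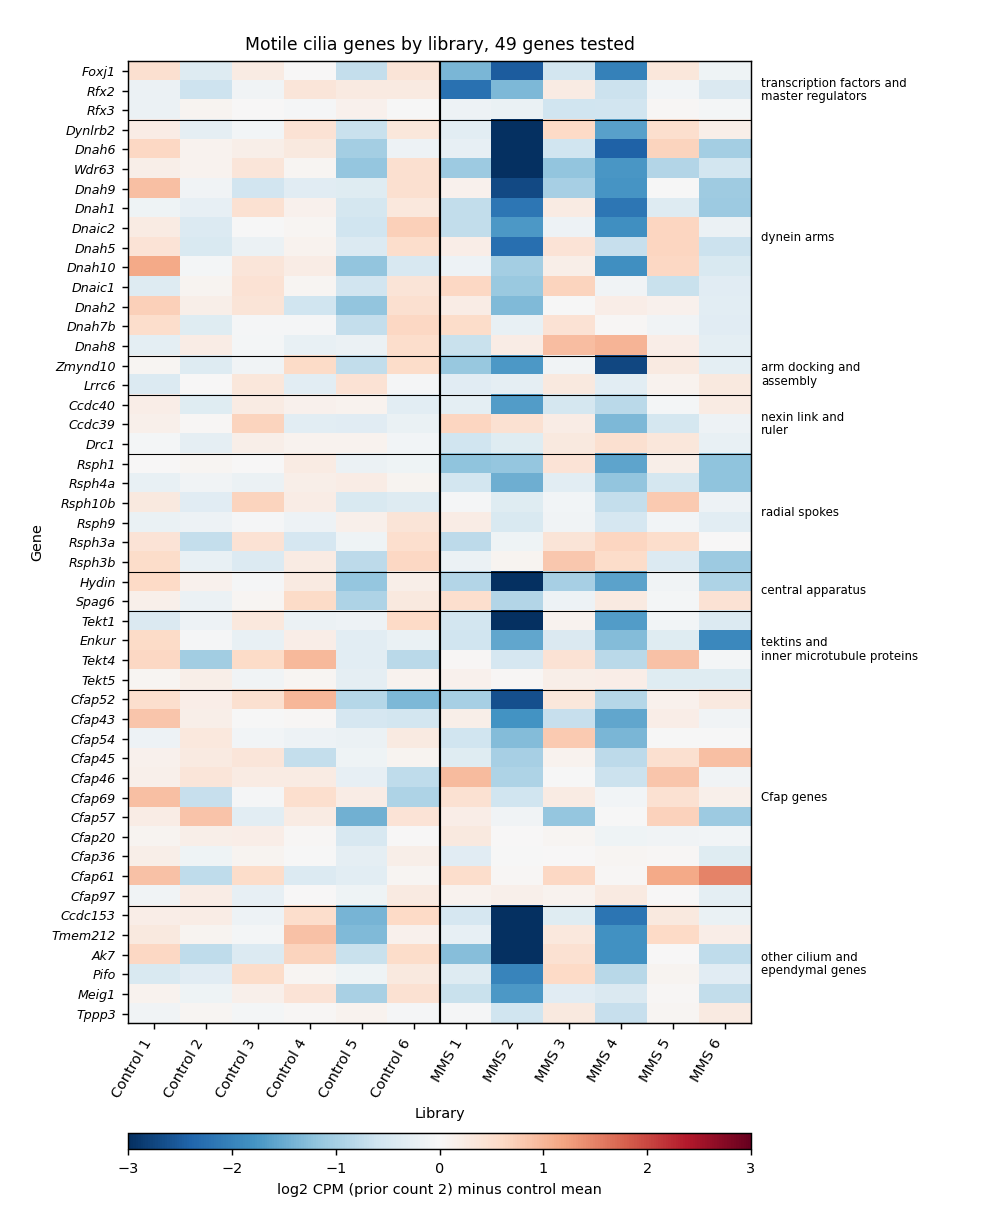
Motile cilia genes by library. Each row is 1 of the 49 members tested, grouped by role, each column is 1 pup, and the colour is log2 CPM (prior count 2) minus the mean of the 6 controls, with blue lower and red higher. MMS 2 and MMS 4 are the bluest columns (medians of -1.16 and -0.79), and Control 5 is the bluest of the controls (-0.37).

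The distance from the controls differed from pup to pup within the MMS group. The median over the 49 members of the log2 difference from the control mean was -1.16 in MMS 2 and -0.79 in MMS 4. It was -0.28 in MMS 1 and -0.30 in MMS 6, and 0.11 and 0.09 in MMS 3 and MMS 5. Among controls it ran from -0.37 in Control 5 to 0.26 in Control 6. MMS 3 and MMS 5 thus lay inside the control range, MMS 1 and MMS 6 at its lower end, and only MMS 2 and MMS 4 below it.

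Single members showed the same order of libraries. In MMS 2, 30 of the 49 members were under 50% of their control mean (61.2%, where 7.98% of all genes were), and in MMS 4 22 were (44.9%, against 6.71%). In Control 5, 12 were (24.5%, against 1.39%). In the other libraries the number was between 0 and 9. In MMS 2 and MMS 4 together 20 members were under 50% (40.8%, against 3.72% of all genes), and 21 had MMS 2 and MMS 4 below all other libraries (42.9%, against 15.1%). MMS 2 was the lower of the pair in 34 of the 49, and the share of all genes with this order was not computed.

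Foxj1 (11:116330704-116335399, minus strand), the factor that turns on the motile cilium programme, measured 29.3, 53.5 and 68.0 CPM in controls (lowest, median, highest) and 8.33, 25.8 and 61.8 CPM in MMS pups. MMS 2, MMS 4 and MMS 1 lay below every control at 8.33, 11.7 and 18.5 CPM, while the other 3 lay between 33.0 and 61.8 CPM and overlapped the controls. Relative to control it differed by -0.78 on the log2 scale (SE 0.45; edgeR adjusted p = 0.597), and by -0.35 (SE 0.36) without MMS 2 and MMS 4. Of the RFX factors, Rfx2 was scarce, with 1.63 to 3.67 CPM in controls and 0.234 to 3.33 CPM in MMS pups, where MMS 1 was lowest, and its log2 fold change was -0.72 (SE 0.42). Rfx3, which neurons and other cells also express, measured 24.1 to 29.8 CPM in controls and 17.9 to 27.8 CPM in MMS pups, with a log2 fold change of -0.25 (SE 0.14). Mcidas, which encodes multicilin, an early activator of the multiciliated fate, had 11 counts over all libraries and did not pass the count filter.

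**Figure D2:**
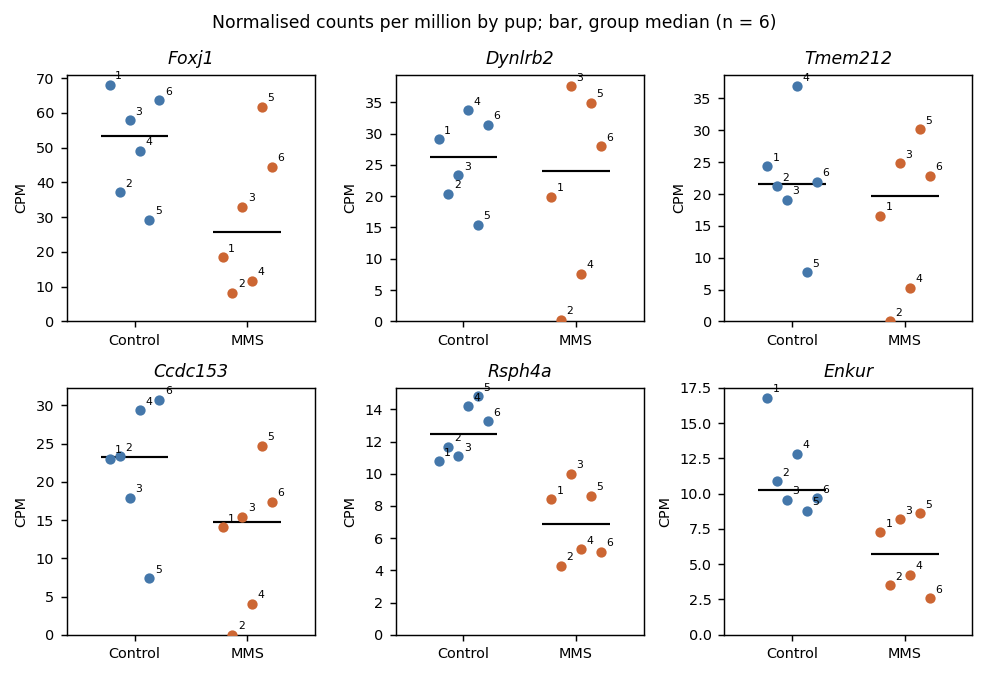
CPM of 6 members in each pup, with the number of the pup beside its point and a bar at the group median (n = 6 per group). MMS 2 and MMS 4 are the lowest points for Dynlrb2, Tmem212 and Ccdc153, while for Rsph4a and Enkur all 6 MMS pups lie below all 6 controls.

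Dynein arms carry the motors. Of 18 members with this role 12 were tested, and 10 had a log2 fold change below 0 (49.9% of all genes did). At an unadjusted p under 0.05 in edgeR, 3 (Wdr63, Dnah1 and Dnah9) were lower, where 4.4% of all genes were. The most abundant of the 12 was Dynlrb2 (8:116504974-116515915, plus strand), a light chain of the roadblock family, whose promoter is printed above. It measured 15.4, 26.2 and 33.7 CPM in controls and 0.269, 24.0 and 37.5 CPM in MMS pups. The low value was MMS 2, with 1 count, or 1.05% of the control mean (95% Poisson interval 0.0266% to 5.86%, with the control mean taken as fixed, which covers counting error only). MMS 4 had 43 counts and 7.63 CPM, also below every control, and the other 4 MMS pups lay at 19.9 to 37.5 CPM, inside or above the control range. The log2 fold change was -0.26 (SE 0.57) with all libraries and 0.25 (SE 0.20) without MMS 2 and MMS 4, so its direction rests on these 2 pups.

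Wdr63 (3:146040526-146108130, minus strand), an intermediate chain of an inner arm dynein, was low in more pups than those 2. It measured 1.54, 4.43 and 5.69 CPM in controls and 0, 1.58 and 2.58 CPM in MMS pups. All 6 MMS pups lay below 5 of the 6 controls, and only Control 5, at 1.54 CPM, was among them. Its log2 fold change of -1.56 (SE 0.44; edgeR unadjusted p = 0.00198, adjusted 0.471) had the largest size among the members tested, and it was -1.12 (SE 0.41) without MMS 2 and MMS 4. These values rest on 158 counts in all. Dnah1, an inner arm heavy chain, measured 9.26 to 18.6 CPM in controls. It was 2.69 CPM in MMS 2, 2.66 CPM in MMS 4 and 6.12 to 16.05 CPM in the other MMS pups. This gave -0.89 on the log2 scale (SE 0.35; adjusted p in edgeR 0.543), and -0.46 (SE 0.25; edgeR unadjusted p = 0.0703) without MMS 2 and MMS 4.

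The outer arm genes followed the library pattern to different degrees. Dnaic2, an intermediate chain, measured 5.25 to 13.5 CPM in controls, 2.15 CPM in MMS 2 and 1.95 CPM in MMS 4. Its log2 fold change was -0.49 (SE 0.38), and -0.06 (SE 0.29) without those 2 libraries. The heavy chains Dnah5 and Dnah9 were both at 0.537 CPM (2 counts) in MMS 2, with lowest controls of 2.99 and 3.86 CPM. In MMS 4 Dnah9 was at 1.42 CPM and Dnah5 at 2.48 CPM. Of these 2 it was Dnah9 that was lower at an unadjusted p under 0.05 (log2 fold change -0.92, SE 0.43; edgeR adjusted p = 0.544). Without MMS 2 and MMS 4 Dnah9 was at -0.46 (SE 0.35; edgeR unadjusted p = 0.198). Dnaic1, the other intermediate chain, was 1.88 CPM in MMS 2 but 4.26 CPM in MMS 4, inside the control range of 2.93 to 6.37 CPM, and its 3' end overlaps Enho on the opposite strand. Dnah6, an inner arm heavy chain, had 0 counts in MMS 2 and was at least 9.98-fold lower there than the control mean (8.04 CPM), with a floor of 3 counts in that library. Dnah8 went the other way, with 5.498 CPM in MMS 4 against at most 3.79 CPM in controls, and a log2 fold change of 0.40 (SE 0.35). The near-identical genes Dnah7a, Dnah7b and Dnah7c may share reads, and their totals of 34, 150 and 13 counts are uncertain.

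Dynein arms are assembled in the cytoplasm and then docked. Zmynd10 and Lrrc6, whose proteins act together in assembly, did not have the same profile. Zmynd10 measured 4.17 to 11.0 CPM in controls, 1.88 CPM in MMS 2 and 0.709 CPM in MMS 4 (4 counts, 9.34% of the control mean), the deepest value of any tested member in MMS 4. Between the groups it differed by -0.77 in log2 (SE 0.42; adjusted p in edgeR 0.580), and by -0.30 (SE 0.31) without MMS 2 and MMS 4. Lrrc6 measured 5.60 to 10.3 CPM in controls and 5.85 to 9.39 CPM in MMS pups, with a log2 fold change of -0.07 (SE 0.23). The docking genes Armc4 and Ttc25 did not pass the count filter with all libraries. Of the 71 members, 14 have another gene over their last 1000 bases, in each case on the opposite strand. They include Zmynd10, Dnah6 and Rsph1 as well as Dnaic1, Ccdc39 and Rsph9.

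The 3 tested genes of the nexin link and of the ruler that spaces the arms had a median log2 fold change of -0.05. In edgeR 0 of them had an unadjusted p under 0.05 (9.08% of all genes did). Drc1, of the nexin link, measured 12.8, 15.7 and 17.4 CPM in controls and 10.1, 16.1 and 21.6 CPM in MMS pups, with a log2 fold change of 0.04 (SE 0.19) and its highest value in MMS 4. The ruler proteins Ccdc39 and Ccdc40 work as a pair, and their genes differed between libraries. Ccdc40 was lowest in MMS 2 (4.03 CPM) and MMS 4 (7.63 CPM), against 10.6 to 16.4 CPM in controls. Its log2 fold change was -0.45 (SE 0.24), and -0.16 (SE 0.21) without MMS 2 and MMS 4. Ccdc39 was 8.596 CPM in MMS 2 and 2.13 CPM in MMS 4, against 4.78 to 10.1 CPM in controls (-0.05, SE 0.32), and its 3' end overlaps Ttc14 on the opposite strand.

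Radial spokes held the member with the smallest p. Rsph4a (10:33905111-33916021, plus strand), of the spoke head, measured 10.8, 12.5 and 14.8 CPM in controls and 4.30, 6.87 and 9.99 CPM in MMS pups. All 6 MMS pups lay below all 6 controls, which was so for 2 of the 49 members and for 0.259% of all genes. The log2 fold change was -0.86 (SE 0.22; edgeR unadjusted p = 0.000739, adjusted 0.392). Without MMS 2 and MMS 4 it was -0.64 (SE 0.22; edgeR unadjusted p = 0.00749, adjusted 0.947). Rsph1, of the same head, was 3.90 to 5.37 CPM in MMS 1, 2, 4 and 6 against 11.1 to 14.9 CPM in controls. It was 16.96 and 14.3 CPM in MMS 3 and MMS 5. The log2 fold change of Rsph1 was -0.58 (SE 0.30; edgeR adjusted p = 0.564), and -0.26 (SE 0.27) without MMS 2 and MMS 4. Rsph9, also a head protein, was expressed at several times the level of the other spoke genes, with 66.1, 71.1 and 99.0 CPM in controls and 53.4, 65.6 and 89.0 CPM in MMS pups. Its log2 fold change was -0.20 (SE 0.14). Its 3' end overlaps Mrps18a, a mitochondrial ribosomal protein gene on the opposite strand, and without known strand handling the reads of the pair cannot be told apart. The paralogs Rsph3a and Rsph3b had log2 fold changes of 0.12 (SE 0.30) and 0.03 (SE 0.37) and may share reads.

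In the central apparatus Hydin (8:110266977-110610253, plus strand), a giant protein of a central pair projection whose loss causes hydrocephalus in mice, measured 1.85, 5.21 and 7.32 CPM in controls and 0, 2.19 and 4.31 CPM in MMS pups. It had 0 counts in MMS 2, at least 6.18-fold below the control mean, and 7 counts in MMS 4. The log2 fold change was -1.23 (SE 0.45; edgeR unadjusted p = 0.0124, adjusted 0.543), and -0.79 (SE 0.38; edgeR unadjusted p = 0.0481) without MMS 2 and MMS 4. Spag6, also of the central apparatus, measured 4.63 to 14.0 CPM in controls and 4.84 to 13.1 CPM in MMS pups (0.03, SE 0.26), with MMS 4 at 11.2 CPM. Mice carry a close copy of Spag6, so its counts are uncertain. Spag16, Spag17 and Spef2 did not pass the count filter with all libraries.

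Among tektins and inner microtubule proteins, Enkur (2:21180731-21205365, minus strand) was the second member whose groups did not overlap. It measured 8.79, 10.3 and 16.8 CPM in controls and 2.58, 5.76 and 8.63 CPM in MMS pups, and here MMS 6 was lowest, not MMS 2 or MMS 4. The log2 fold change was -0.97 (SE 0.27; edgeR unadjusted p = 0.00171, adjusted 0.471), and -0.74 (SE 0.27; edgeR unadjusted p = 0.0108, adjusted 0.961) without MMS 2 and MMS 4. Tekt1 measured 8.18 to 17.3 CPM in controls and 0.537 CPM in MMS 2, where 2 counts gave 4.64% of the control mean (95% Poisson interval 0.562% to 16.8%). It was 3.19 CPM in MMS 4 and 7.49 to 12.1 CPM in the other MMS pups. Its log2 fold change was -0.73 (SE 0.40), and -0.26 (SE 0.24) without MMS 2 and MMS 4. Tekt5, the most abundant tektin gene here, measured 24.1 to 33.1 CPM in controls and 22.5 to 33.7 CPM in MMS pups, with MMS 4 highest of all 12 libraries (-0.02, SE 0.14). The tektin genes thus did not share a profile.

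The Cfap genes, named for cilia and flagella associated proteins of many functions, were the group nearest to 0. Of 16, 11 were tested, 6 lay below 0 (49.9% of all genes did) and 5 above, and their median log2 fold change was -0.01. The most abundant were Cfap36, with 68.2 to 92.9 CPM in controls and 64.1 to 85.5 CPM in MMS pups (-0.10, SE 0.11), Cfap20, which encodes a protein at the inner junction of the doublets (0.002, SE 0.13), and Cfap97 (0.06, SE 0.15). For these 3, MMS 2 and MMS 4 lay between 90.3% and 120% of the control mean. Cfap43 and Cfap54 were lower in both, at 1.88 and 2.31 CPM for Cfap43 against at least 5.06 CPM in controls, and at 4.30 and 4.08 CPM for Cfap54 against at least 9.87 CPM. Cfap61, of a complex at the base of the spokes, had the highest log2 fold change of the members (0.67, SE 0.36; edgeR adjusted p = 0.574), with 1.36 to 5.17 CPM in controls and 2.66 to 8.05 CPM in MMS pups.

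The remaining members are marker genes of ependymal cells and other cilium genes, and 2 of them had 0 counts in MMS 2. Tmem212 (3:27866066-27896368, minus strand), which encodes a membrane protein, measured 7.71, 21.6 and 36.9 CPM in controls and 0, 19.7 and 30.2 CPM in MMS pups. It had 0 counts in MMS 2, at least 27.1-fold below the control mean, and 30 counts (5.32 CPM) in MMS 4. The other 4 MMS pups lay at 16.6 to 30.2 CPM, inside the control range. Ccdc153 (9:44240676-44247306, plus strand), a coiled-coil gene used as an ependymal marker, measured 7.40, 23.2 and 30.8 CPM in controls and 0, 14.7 and 24.7 CPM in MMS pups. It too had 0 counts in MMS 2, at least 27.3-fold below the control mean, and 23 counts (4.08 CPM) in MMS 4. For both, Control 5 was the lowest control. The log2 fold changes were -0.39 (SE 0.63) for Tmem212 and -0.79 (SE 0.61) for Ccdc153, and without MMS 2 and MMS 4 they were 0.14 (SE 0.34) and -0.26 (SE 0.33).

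Ak7, an adenylate kinase of the cilium, was at 0.537 CPM in MMS 2 and 2.13 CPM in MMS 4 against 4.89 to 13.8 CPM in controls. Meig1 measured 7.10, 15.7 and 19.8 CPM in controls and 4.03, 9.68 and 14.7 CPM in MMS pups (-0.63, SE 0.26; edgeR adjusted p = 0.543). Its log2 fold change was -0.45 (SE 0.24; edgeR unadjusted p = 0.0732) without MMS 2 and MMS 4. Tppp3, a microtubule-binding protein gene that other brain cells also express, was the most abundant member, with 289, 313 and 336 CPM in controls and 194, 314 and 381 CPM in MMS pups. MMS 2 (208 CPM) and MMS 4 (194 CPM) were again lowest, at 66.4% and 61.9% of the control mean, and the log2 fold change was -0.07 (SE 0.14). In MMS 2 the tested members thus ran from 0 counts for Tmem212 and Ccdc153 to 135% of the control mean for Ccdc39. Tekt5, Cfap20 and Cfap36 were at 98.1% to 102%. Counting all 49, 6 tested members had 0 counts in MMS 2 (Wdr63, Dnah6, Hydin, Cfap52, Tmem212 and Ccdc153), and 6 lay within 1.25-fold of their control mean in both MMS 2 and MMS 4. Of the 22 members below the count filter, 10 had 0 counts in MMS 2. Among the 22, Rsph6a (37 counts over all libraries) was at 361% of its control mean there, with 7 counts. Such members can have as few as 11 counts over all libraries (Mcidas), so a 0 among them says little. The shares of all genes with 0 counts in MMS 2, or within 1.25-fold in both, were not computed.

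**Figure D3:**
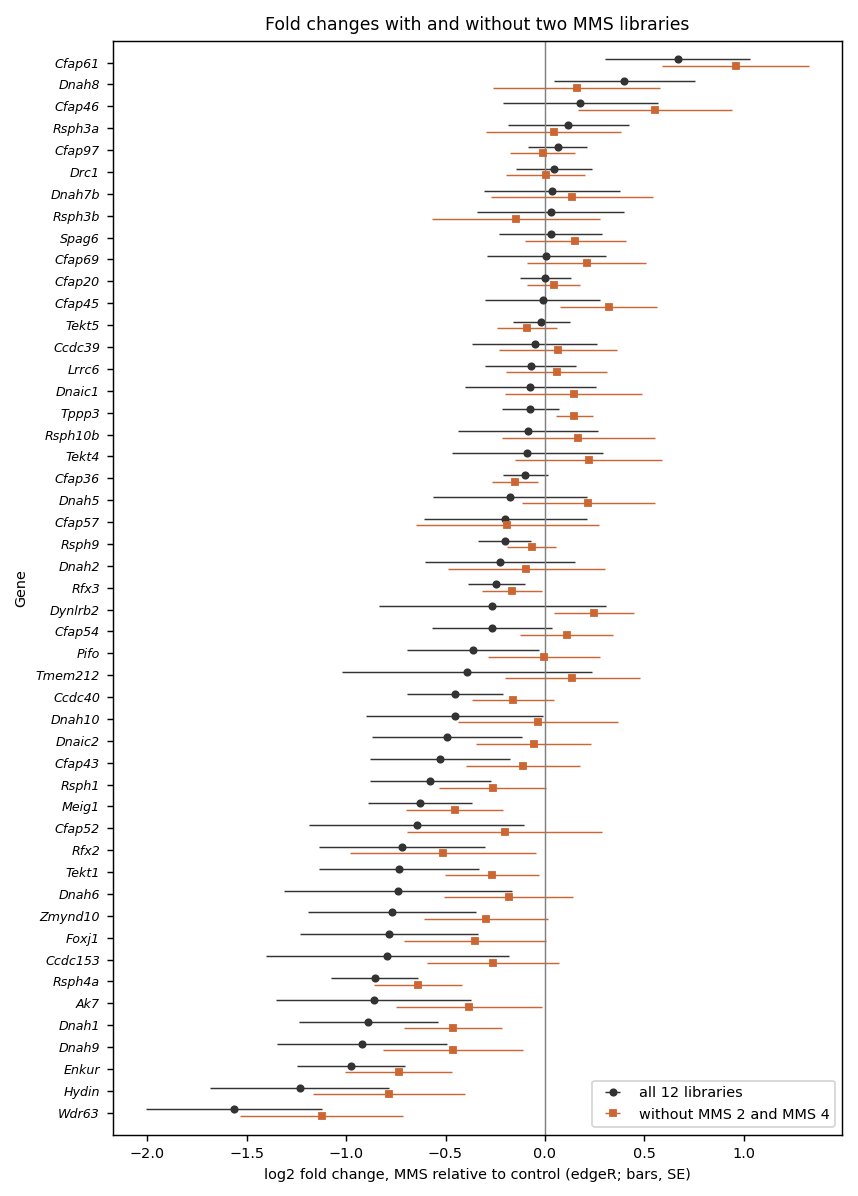
Log2 fold change of each tested member, MMS relative to control, with its SE (edgeR), for all 12 libraries (circles) and without MMS 2 and MMS 4 (squares). With all libraries 38 of 49 members lie below 0 (49.9% of all genes do), and without the pair the members' median is -0.06.

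Without MMS 2 and MMS 4 the lean of the list was small, and a few members kept lower values. The members' median was -0.06, and that of all genes was 0.0007. Of 55 members tested 31 lay below 0, and the share of all genes below 0 was not computed for these libraries. In edgeR 0 of them passed an FDR of 0.05 (0.0373% of all genes did), and all adjusted p-values were at least 0.947. At an unadjusted p under 0.05, 5 were lower (9.09%, against 2.62% of all genes), namely Rsph4a, Wdr63, Enkur, Hydin and Iqca, and 2 were higher (2.41% of all genes were), Cfap61 (0.96, SE 0.37) and Ttc25 (0.89, SE 0.43). Iqca, of the nexin link, did not pass the count filter with all libraries. Here it differed by -1.21 (SE 0.52), with one control, Control 4, at 9.63 CPM against 2.01 to 2.80 CPM in the others. Leaving out MMS 2 alone gave a median of -0.12, and leaving out MMS 4 alone gave -0.14.

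Across the 10 libraries other than MMS 2 and MMS 4, members differed in how far they varied together. The correlation of a member with the mean of the other members was above 0.5 for 22 of the 49 and below 0 for 9. The median r was 0.45, over 10 libraries that also share their depth. This r was not computed for genes outside the list, so these counts have no share over all genes beside them. Meig1 (0.91) and Cfap36 (0.93) were nearest to the shared profile, and Foxj1 (0.72), Dynlrb2 (0.71) and Zmynd10 (0.79) were near it. Cfap36 was nonetheless at 98.1% and 103% of its control mean in MMS 2 and MMS 4. Tppp3 (-0.43), Lrrc6 (-0.36), Rfx3 (-0.29) and Rsph9 (-0.15) ran against it.

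Of other genes of the motile cilium, a further 47 were listed and 44 had a gene row. In 15 of the 34 tested, MMS 2 and MMS 4 were the lowest libraries (15.1% of all genes had this). Of the 34, 27 had a log2 fold change below 0 (49.9% of all genes did), and the median was -0.33. In edgeR 0 passed an FDR of 0.05 (0% of all genes did). At an unadjusted p under 0.05 in edgeR, 5 were lower (4.4% of all genes were) and 0 were higher (4.68% were). The 5 were Heatr2, Stk36, Mns1, Mlf1 and Kif27. The median difference of the 34 from the control mean was -1.18 in MMS 2 and -0.83 in MMS 4. The most abundant of them, Lrrc23, a radial spoke gene, measured 25.5, 52.0 and 58.7 CPM in controls, 0.269 CPM in MMS 2 and 3.55 CPM in MMS 4. Its highest MMS value, 64.9 CPM, was above all controls (log2 fold change -0.64, SE 0.71). Dnal1, a light chain of the outer arm, went the other way, with 48.1 CPM in MMS 2 and 57.3 CPM in MMS 4 against 26.5 to 37.1 CPM in controls (0.15, SE 0.20). Fam183b measured 24.5 to 39.4 CPM in controls, 12.1 CPM in MMS 2 and 16.7 CPM in MMS 4 (-0.42, SE 0.22).

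The transport machinery that builds every cilium, beating or not, was lowest in both MMS 2 and MMS 4 in 1 gene of 35 (15.1% of all genes were). Of these 35 genes of intraflagellar transport and the BBSome, all tested, 14 lay below 0 (49.9% of all genes did) and 21 above. Their median was 0.06. At an unadjusted p under 0.05 in edgeR, 1 was lower, Bbs9 (-0.32), where 4.4% of all genes were. The 1 that was higher (4.68% of all genes were) was Kifap3, a subunit of the kinesin that moves cargo to the tip (0.30, SE 0.13). Kifap3 measured 192 to 227 CPM in controls, 334 CPM in MMS 2 and 319 CPM in MMS 4. Kif3a, its motor partner, measured 104 to 151 CPM in controls and 112 CPM in both (-0.15, SE 0.11), and Ift20 differed by 0.04 (SE 0.11). The list's median difference was 0.11 in MMS 2 and 0.21 in MMS 4. Cytoplasmic dynein and dynactin, relatives of the ciliary motors that work in the cell body, had a median log2 fold change of 0.05 over 16 genes. Dync1h1, the heavy chain, was 216 CPM in MMS 2 and 215 CPM in MMS 4 against 384 to 507 CPM in controls (-0.37, SE 0.16; edgeR adjusted p = 0.543), while Dynlt1b was higher (0.83) and Dync1i2 differed by 0.09 (SE 0.10). In 5 of the 16 MMS 2 and MMS 4 were the lowest libraries (15.1% of all genes had this). The summed level of the 16 was 4068 to 4504 CPM in controls, 3535 CPM in MMS 2 and 3451 CPM in MMS 4. Dynll2, with a log2 fold change of -0.03 (SE 0.13), measured 1284 to 1502 CPM in controls, 1107 CPM in MMS 2 and 1015 CPM in MMS 4. None of the genes in these 3 lists passed an FDR of 0.05.

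Genes that act earlier, in the choice of a multiciliated fate and in making many centrioles, were mostly scarce. Of 15 with a gene row, 8 were tested, 4 below 0 (49.9% of all genes were) and 4 above, with a median of -0.05. In edgeR 0 of the 8 had an unadjusted p under 0.05 (9.08% of all genes did). The most abundant, E2f5, E2f4 and Cep164, had log2 fold changes of 0.09, 0.12 and 0.06. Ccno, needed for centriole production, did not pass the count filter. It measured 1.38 to 4.32 CPM in controls, 0 CPM in MMS 2 and 0.177 CPM in MMS 4. It was chosen for mention after its values were seen.

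**Figure D4:**
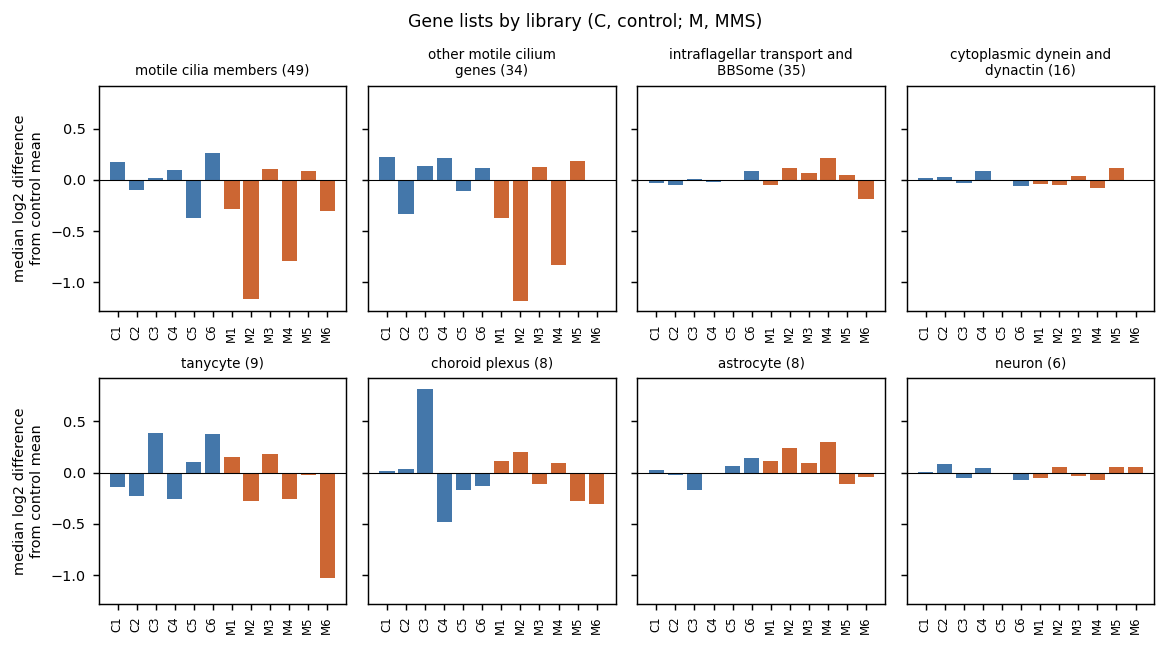
Median over the genes of a list of log2 CPM (prior count 2) minus the control mean, by library (C, control in blue; M, MMS in orange), with the number of genes tested in brackets. The motile cilium lists are lowest in M2 and M4 (-1.16 and -0.79, and -1.18 and -0.83), while the transport list is 0.11 and 0.21 there.

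Markers of the cells around the cilia were read beside these values, and their part in the result was not tested. For comparison with the counts in each marker list, 49.9% of all genes lay below 0. At an unadjusted p under 0.05 in edgeR, 4.4% of all genes were lower and 4.68% higher. Of 4 ependymal markers outside the cilium, all 4 lay below 0 and 0 at an unadjusted p under 0.05, with a median log2 fold change of -0.32. Their summed level was 59.9 to 85.0 CPM in controls, 41.4 CPM in MMS 2 and 74.5 CPM in MMS 4. Cd24a, the most abundant, measured 39.8 to 59.8 CPM in controls, 27.1 CPM in MMS 2 and 53.4 CPM in MMS 4, so that this list did not separate MMS 4. Rarres2 was 10.5 and 10.8 CPM in MMS 2 and MMS 4, inside the control range of 8.64 to 26.1 CPM, and Mia was 3.76 and 7.80 CPM against 2.99 to 8.22 CPM. Calml4 had 0 counts in MMS 2.

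Tanycytes are the unciliated or sparsely ciliated relatives of ependymal cells in the floor of the third ventricle. Of 9 markers tested 6 lay below 0, with a median of -0.08, and 1 (Crym, -0.86, SE 0.38) was lower at an unadjusted p under 0.05. The summed level of 11 markers was 108 to 196 CPM in controls, 109 CPM in MMS 2, 126 CPM in MMS 4 and 88.2 CPM in MMS 6, the lowest. Col23a1 (-0.50, SE 0.31) and Vim (-0.03, SE 0.17) were the other abundant ones. The median difference over the 9 was lowest in MMS 6, at -1.03, and was -0.28 in MMS 2 and -0.25 in MMS 4. In 0 of the 9 were MMS 2 and MMS 4 the 2 lowest libraries, but single markers were low there. Crym was 8.86 and 6.56 CPM in MMS 2 and MMS 4 against 11.7 to 45.7 CPM in controls. Rax, below the count filter and named after its values were seen, was 0 CPM in both against 1.09 to 6.04 CPM. Vim (49.7 and 76.3 CPM) and Lhx2 (12.1 and 10.6 CPM) lay inside their control ranges.

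The choroid plexus also bears tufts of cilia. Its markers, 14 listed and 8 tested, had a median log2 fold change of -0.14, with 6 below 0 and 1, Ttr, lower at an unadjusted p under 0.05. Their summed level was 1947 CPM in Control 3 and 95.6 to 150 CPM in the other 11 libraries. Ttr, its defining secreted protein, was 1735 CPM in Control 3, 35.5 CPM in Control 4 and 1.09 to 5.10 CPM in the others. The groups differed by -6.58 in log2 (SE 2.14; adjusted p in edgeR 0.543), and by -1.63 without Control 3. In Control 3 the members' median difference was 0.01, and MMS 2 and MMS 4 had 5.10 and 3.90 CPM of Ttr. Enpp2 (0.03, SE 0.17) and Prlr (0.31, SE 0.18) differed little. Astrocyte markers had a median of 0.10 over 8 genes, and 2 were higher at an unadjusted p under 0.05, Gjb6 (0.66) and Aldoc (0.33, SE 0.09). Aldoc measured 430 to 582 CPM in controls and 600 to 671 CPM in MMS pups, with no overlap (0.13% of all genes lay wholly above). Their summed level was 1674 to 2040 CPM in controls, 2357 CPM in MMS 2 and 2362 CPM in MMS 4, the 2 highest.

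Neuronal markers had a median of 0.07 over 6 genes, of which 1 was lower at an unadjusted p under 0.05. This was Tubb3, a neuronal tubulin, at 1280 CPM in MMS 2 and 1307 CPM in MMS 4 against 3001 to 3461 CPM in controls (-0.49, SE 0.21; edgeR adjusted p = 0.543), while Stmn2 (0.09, SE 0.08) and Syt1 (0.06, SE 0.13) differed little. Their summed level was 6326 to 7035 CPM in controls, 5008 CPM in MMS 2 and 5014 CPM in MMS 4. To see whether the block of tissue differed, region markers were read as well. Hypothalamic markers had a median of 0.24 over 12 genes, with 8 above 0, and a summed level of 856 to 1824 CPM in controls, 1398 CPM in MMS 2 and 1550 CPM in MMS 4. Much of that sum was Pmch, at 635 and 929 CPM in MMS 2 and MMS 4 against 195 to 500 CPM in controls. In 3 of the 12 genes MMS 2 and MMS 4 were the lowest libraries (15.1% of all genes had this). These 3, named after their values were seen, belong to neurons of the arcuate nucleus beside the third ventricle. Agrp was 0 and 0.709 CPM against 2.72 to 34.3 CPM in controls, Pomc was 8.06 and 3.19 CPM against 11.8 to 41.7 CPM, and Ghrh was 2.42 and 4.79 CPM against 6.52 to 18.8 CPM. Their part in the result was not tested. Markers of the neighbouring telencephalon (5 tested, median 0.12) summed to 36.4 to 61.1 CPM in controls, 69.8 CPM in MMS 2 and 59.8 CPM in MMS 4. Markers of the thalamus (4 tested, median 0.20) summed to 84.2 to 531 CPM in controls, 337 CPM in MMS 2 and 159 CPM in MMS 4. The region lists each had 0 genes at an unadjusted p under 0.05. How much ventricular wall each block held is not recorded in the labels, and its part in the result was not tested.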

How the data were processed

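Hypothalamic mRNA from 6 Control and 6 MMS pups was sequenced with a QuantSeq 3' kit on an Ion Proton instrument. The authors aligned reads to mm10 in Torrent Suite and deposited raw counts per gene, 1 column per library, without normalization or pooling. Not given in the sources used here are the counting tool, its annotation and its handling of strand and shared reads. In 27 rows the symbol had become a date, and these were kept unnamed.

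The main test was edgeR's quasi-likelihood F test (version 4.0.16, R 4.3.3) on the whole table (robust, TMM, default filter at 10 counts and a total of 15, group as the only term, Benjamini-Hochberg adjustment over 13104 genes, threshold 0.05). P-values are two-sided, and nothing states the litter of a library. CPM used the same scaling, and log2 values a prior count of 2. DESeq2 1.42.0 and limma 3.58.1 were alternatives, and the script was tested on simulated data. Within groups, 30 pairs of libraries differed by a chi-square of 4.04 to 31.5 per degree of freedom, so each was counted separately. Samples with the same replicate number deviated together little (correlations of -0.05 to 0.12), and numbers were not used as pairs. This does not exclude that same-numbered pups share a litter.

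Gene coordinates are from GENCODE M21 and promoters from RefSeq (GRCm38.p6). Named genes were the 3 most abundant tested members of each role, the 6 with the smallest p, every regulator, the 3 most abundant genes of each other list and the 10 genes most like the members. Other genes were named after their values were seen. Members and lists were chosen with earlier results of these data known. Intervals and floors (3 counts) cover counting error only. Reads carried no molecular identifiers, so they are not independent molecules.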

Additional observations from a re-analysis of the deposited data

Results flagged for a closer look

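In 56 groups of 6 values, each a named member in controls or in MMS pups, the gap between an extreme pup and its neighbour was compared with the whole range of the group. In 2 it passed Dixon's 95% limit, and chance at 1 in 20 would give 2.8. Cfap20, which encodes a protein of the inner junction of the doublets, was 35.5 CPM in Control 5, with the next control at 50.1 CPM. Mcidas, the multicilin gene, was 0.966 CPM in MMS 6, which is 3 counts, with the next MMS pup at 0.303 CPM.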

How the results depend on the processing

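Across the 20 other settings, 0 members passed an FDR of 0.05 (0 to 7 of all genes did), with a smallest adjusted p of 0.0976 in DESeq2. The members' median log2 fold change stayed below 0, from -0.41 (limma-voom) to -0.06 (without MMS 2 and MMS 4), and from -0.40 to -0.12 on leaving out 1 library. The number of members lower at an unadjusted p under 0.05 was 7 with all libraries in edgeR (4.4% of all genes were). It was 8 of 71 in DESeq2 (2.85%), 9 of 71 without a filter (3.82%) and 15 in limma-voom (6.32%). Of the 14 members left by a mean of at least 50 counts, 1 was lower (5.08% of all genes were). On leaving out 1 library, 5 to 12 were lower (2.61% to 6.24% of all genes). These included 11 without MMS 3 (4.4%) and 12 without MMS 5 (6.24%). The number higher was 0, but 1 with quality weights (321 of 13104 genes were) and 2 without MMS 2 and MMS 4 (2.41% of all genes). On leaving out 1 library it was 0 to 1, with 350 to 979 higher among all genes. With the replicate number as a block, 10 members were lower (5.56% of all genes were) and the median was -0.28. There 0 members passed the FDR threshold (1 of 13104 genes did). The numbers are not known to pair pups, and only numbers 1 and 2 correlated best with their own number. Over the other gene lists, 0 of 93 genes passed the threshold with all libraries, and 0 did in any of the 20 other settings.

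Among the named genes followed in every setting, signs changed only for genes near 0 or resting on MMS 2 and MMS 4. Without those libraries Dynlrb2 was 0.25, Tmem212 0.14, Tppp3 0.15, Ccdc39 0.067, Lrrc6 0.059, Cfap97 -0.012 and Dnal1 -0.26. Other tested members changed sign there too. Cfap54 went from -0.27 to 0.11, Dnah5 from -0.18 to 0.22, Tekt4 from -0.09 to 0.22 and Dnaic1 from -0.07 to 0.14. Rsph10b went from -0.09 to 0.17, Cfap45 from -0.01 to 0.32 and Rsph3b from 0.03 to -0.15. With quality weights Dnal1 was -0.090, Drc1 -0.041 and Tppp3 0.0086, and with a mean of at least 50 counts Cfap20 was -0.0015. On leaving out 1 library, Ccdc39 ran from -0.23 to 0.15, Cfap20 from -0.075 to 0.044, Dnal1 from -0.038 to 0.28, Drc1 from -0.063 to 0.16, Lrrc6 from -0.15 to 0.040, Spag6 from -0.12 to 0.17, Tekt5 from -0.063 to 0.056 and Tppp3 from -0.16 to 0.030. Ttr ran from -6.84 to -1.63, the latter without Control 3. The 22 members below the filter rest on few counts, with 1 count worth up to 0.322 CPM, and were tested only in the settings that kept them.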

Other observations

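Outside the members and the list of other motile cilium genes, 12953 genes were searched. The 10 whose level over the 10 libraries other than MMS 2 and MMS 4 was most like the members' mean profile had correlations of 0.88 to 0.95. Cilium genes that neither list held could be among those picked. Their values in MMS 2 and MMS 4 were not used in the choice. Tctex1d4, a dynein light chain gene of the Tctex family, was the most alike (r = 0.95), with 2.01 to 8.85 CPM in the 10 libraries, 0 CPM in MMS 2 and 0.887 CPM in MMS 4. Efcab10 was 6.76 to 11.1 CPM in the 10 libraries and lower in both, at 3.49 and 6.03 CPM. Dlec1 was 1.08 to 7.57 CPM in the 10 libraries and 1.07 and 1.596 CPM in MMS 2 and MMS 4. Slc14a2, a urea transporter gene, was 1.88 and 1.06 CPM, near or below its lowest value of 1.40 CPM elsewhere, and Ddit4l was 4.84 and 3.19 CPM against at least 5.15 CPM. Fhod3, a formin that assembles actin, went the opposite way, with 36.0 and 37.1 CPM against 12.2 to 20.6 CPM in the 10 libraries. Ttc26, a gene of intraflagellar transport, was 4.84 and 5.498 CPM, inside the 1.39 to 6.54 CPM of the others, and Rtp4, Ano8 and Cd2bp2 completed the list with log2 fold changes of -0.27, -0.41 and -0.02.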
